A study of Homo sapiens with 20 samples.

Results

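H3K27ac regions of LNCaP cells after CTCF siRNA were described here from 4 of the 20 ChIP-seq libraries of the study. LNCaP is a human prostate cancer cell line that responds to androgen. The cells received either a pooled non-targeting siRNA (control) or a pool of siRNAs against CTCF, each at 20 nM. They were split and transfected again after 72 h, and chromatin was collected at 144 h. Each treatment had 2 libraries, and the other libraries of the study measured CTCF or H3K4me3 in LNCaP cells and CTCF in IMR90 fibroblasts. The study describes its ChIP experiments as biological duplicates, and the labels do not say which culture each library came from. Both treatments used the same line, and a clone or passage was not named in the labels. The members were all regions of the 4 deposited H3K27ac lists on chromosomes 1 to 22 and X, 350286 of the 351034 regions in these lists and of the 790482 regions and peaks in the whole series. All regions of these lists were members, whatever their change. They were then grouped by presence across the 4 lists, by promoter or distal position and by change in width, pieces or edges.

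H3K27ac is the acetylation of lysine 27 on histone H3, a mark of active promoters and enhancers. CTCF is a zinc-finger protein that binds a long DNA motif, holds cohesin at chromatin loop anchors and can act as an insulator between neighbouring chromatin domains. In prostate cells, enhancers carrying this mark are commonly bound by FOXA1 and HOXB13.

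The CTCF siRNA pool is shown first because it defines the treated group. Sequences are those of the submitters' labels, written 5′ to 3′ in lower case.
siRNA 1: gaugaagacugaaguaaug
siRNA 2: ggagaaagaagaagagua
siRNA 3: gaagaugccugccacuuac
siRNA 4: gaacagcccauaaacauag
In hg19, siRNA 1 matched a coding exon of CTCF on the plus strand of chromosome 16, at chr16:67644951-67644969. Nearby, siRNA 3 matched at chr16:67644838-67644856 and siRNA 4 at chr16:67645048-67645066, each in the same strand and in coding sequence, and each of these 3 had 1 match in the genome. The second sequence, 18 bases long as given in the labels against 19 for the others, had no exact match in any annotated CTCF transcript. Of 33377 CTCF sites found in both LNCaP control lists, 3091 were also in both CTCF siRNA lists (persistent sites) and 30286 were not (lost sites). A lost site may thus still be in 1 CTCF siRNA list, while the study defines lost sites as absent in its CTCF siRNA replicates. The study lists fewer CTCF reads for CTCF siRNA replicate 1 than for the other LNCaP CTCF libraries. The part of depth in the count of lost sites was not tested.

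The label of the cell line was compared with defining genes of several cell types, by the length of H3K27ac regions within 5000 bp on either side of each gene start in lists cut to equal length. All 11 luminal prostate markers were covered, with summed lengths of 81416 and 79866 bp in the control libraries and 81416 and 89220 bp after CTCF siRNA. These included KLK3 (prostate-specific antigen), FOXA1 and HOXB13. Of 7 immune markers, 5 were at 0 in every library (among them PTPRC, CSF1R, ITGAM and SPI1), and of 9 neuroendocrine markers only SYP was covered. Of 10 basal markers 4 were covered, among them ITGA6 and LAMB3 in every library, and TP63, KRT5 and KRT14 were at 0. In the full lists KRT5 had 600 bp in control replicate 1 and 1000 bp in CTCF siRNA replicate 2. Of 11 mesenchymal markers 6 were covered, with VIM (vimentin), ZEB1 and COL1A1 at 1400 to 2300 bp in each library.

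The 4 lists differed in length and width. The control lists held 86949 and 69949 regions and the CTCF siRNA lists 94415 and 98973. CTCF siRNA replicate 2 stood apart from the other libraries: its median region was 1700 bp wide against 1300 to 1350 bp, its narrowest 5% ended at 950 bp against 550 bp, and its regions covered 226 Mb against 122 to 176 Mb. The study lists the fewest H3K27ac reads for that library. Covered length was 142 ± 28.0 Mb (SD, n = 2) in control and 201 ± 35.5 Mb (SD, n = 2) after CTCF siRNA, groups that did not overlap (two-sided exact permutation p = 0.33). With 2 libraries against 2, 0.33 was the smallest p that this test could give. The lists give no read counts, so the depth behind each region is unknown.

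Regions overlapping in any list were merged into 127074 regions, of which 47263 were present in all 4 lists and 14012 of these lay within 1000 bp of a protein-coding transcript start (promoter). Across these shared regions the covered length was larger in both CTCF siRNA libraries than in both control libraries at 22174 regions, 46.9% of the shared set. It was smaller in both at 1935 regions (4.09%). With a difference of at least 1.5-fold between group means, 9010 regions were wider (19.1%) and 461 narrower (0.975%). The median region measured 2050 and 1750 bp in the control libraries and 2150 and 2500 bp after CTCF siRNA. Without CTCF siRNA replicate 2, 24367 regions were wider and 8657 narrower, or 6414 and 2039 at 1.5-fold.

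The shift in width was of the same size as the spread between replicates. CTCF siRNA replicate 1 was 1.03 times as wide as control replicate 1 at the median shared region, and wider at 53.8% of regions. Against control replicate 2 it was 1.19 times as wide. Within a treatment, control replicate 1 was 1.15 times as wide as control replicate 2, and CTCF siRNA replicate 2 was 1.14 times as wide as CTCF siRNA replicate 1. The median of the 2 libraries over the 2 libraries was 1.20. When each library's widths were divided by its own median over regions that were 1 piece in every library, 10681 regions were wider and 13051 narrower, with a median ratio of 0.981, and 3773 were wider and 1808 narrower at 1.5-fold. This scaling sets the median ratio near 1, so its balance of directions is no test of the shift common to all regions, and it shows changes relative to that shift only.

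**Figure D1:**
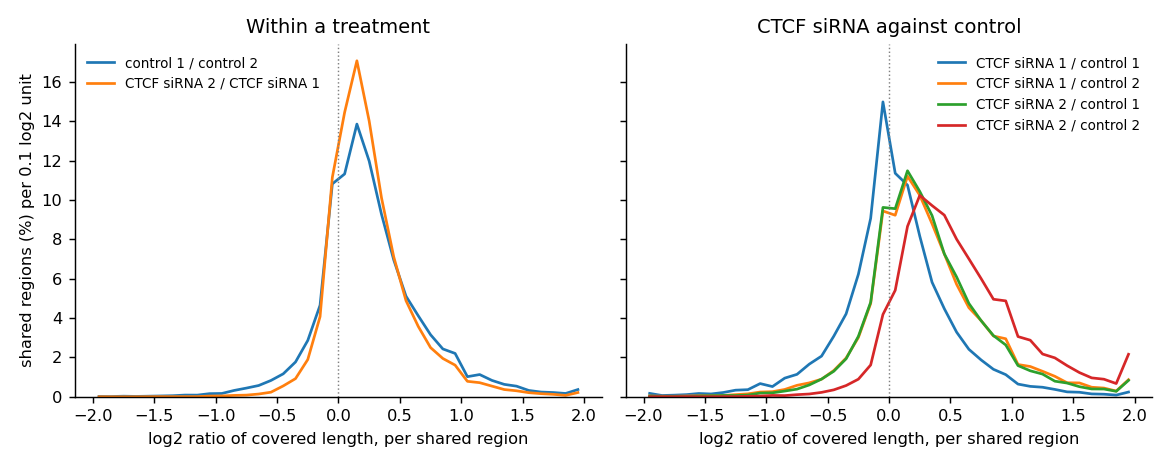
Distribution over 47263 shared regions of the log2 ratio of covered length between 2 libraries, in bins of 0.1, with the end bins holding all values beyond them. The left panel gives the 2 ratios within a treatment (medians 1.15 and 1.14) and the right panel the 4 ratios of a CTCF siRNA library over a control library, whose medians run from 1.03 to 1.40.

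Promoter and distal regions had similar median ratios. Promoter regions had medians of 2650 and 2300 bp in control and 2800 and 3250 bp after CTCF siRNA, a median ratio of 1.18. Distal regions had medians of 1900 and 1550 bp in control and 1950 and 2300 bp after CTCF siRNA, a median ratio of 1.21. Narrower regions were mostly distal, 1629 of 1935, or 4.90% of distal shared regions (95% Wilson interval 4.67 to 5.14%) against 2.18% of promoter regions (1.95 to 2.44%). With widths divided by library medians the shares were 27.7% of distal (27.2 to 28.2%) and 27.4% of promoter regions (26.7 to 28.1%). Such intervals count regions and do not cover the spread between libraries. The relative gain was smaller in wide regions: the median ratio was 1.27 in regions below 1500 bp on average and 1.12 in the 631 regions of 12000 bp or more.

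Among shared regions of 1 piece and at least 1000 bp in every library, the largest increase lay within 1000 bp of a transcript start of CNTF and over coding sequence, which encodes ciliary neurotrophic factor (chr11:58390551-58396250). It measured 1550 and 1150 bp in control and 5500 and 4400 bp after CTCF siRNA, a ratio of 3.67. The region at a transcript start of HDLBP, a gene for an RNA-binding protein (chr2:242187851-242193100), grew from 1500 and 1000 bp to 3750 and 5250 bp. A region in an intron of SNX3, a sorting nexin gene (chr6:108571201-108576650), measured 1050 and 1200 bp in control and 2600 and 5450 bp after CTCF siRNA. The remaining members of the top 5 lay at CERS6 (ceramide synthase), with a ratio of 3.43, and at SEC11C (a signal peptidase subunit), with 3.36. No CTCF site of the control lists fell in any of these 5 regions. Such sites were infrequent in all shared regions, of which 10.1% overlapped a lost site and 0.749% a persistent one.

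The largest decreases were in distal chromatin in 4 of 5 cases, and 70.4% of all shared regions were distal. The region over part of ABCA12, a lipid transporter gene (chr2:215864801-215869300), measured 4500 and 3450 bp in control and 1200 and 1600 bp after CTCF siRNA, a ratio of 0.352, and held 1 lost CTCF site. A region in an intron of CDKAL1 (chr6:20743501-20749150) fell from 5650 and 4250 bp to 1600 and 2100 bp. Between protein-coding genes, the region 181182 bp from PAX1 (chr20:21880301-21885350) measured 5050 and 4150 bp in control and 1500 and 2000 bp after CTCF siRNA. The promoter region of the set lay at the olfactory receptor gene OR51D1 (chr11:4656401-4660100), with 3350 and 3050 bp in control and 1450 and 1000 bp after CTCF siRNA, and it also held a lost CTCF site. The fifth, 230006 bp from CDH9, had a ratio of 0.386. In these 10 regions the groups did not overlap, as the rule that chose them requires.

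Most shared regions were 1 piece in every library (36579, 77.4%). The share of shared regions in 1 piece was 88.04 and 86.05% in control, 87.77% in CTCF siRNA replicate 1 and 95.30% in replicate 2, so the first CTCF siRNA library lay between the controls. Regions that were 2 or more pieces in both control libraries and 1 piece in both CTCF siRNA libraries (merged) numbered 931, 1.97% of shared regions. The opposite (split) was found at 205 regions, 0.434%. Without CTCF siRNA replicate 2, 1363 were merged and 982 split. At promoters 3.35% of shared regions were merged (3.07 to 3.67%) and in distal chromatin 1.39% (1.27 to 1.52%). Merged regions were long, with 9.26% of the shared regions between 6000 and 12000 bp merged against 0.0461% of those below 1500 bp.

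The widest merged region on average after CTCF siRNA lay between protein-coding genes, 27824 bp from PPARA (chr22:46430001-46518600). Genes of other types were not considered in naming these positions. The PPARA region was 2 pieces with 87650 and 87450 bp in control and 1 piece with 87900 and 88500 bp after CTCF siRNA. Its covered length thus changed little. It held 2 lost CTCF sites, and the other two merged regions named here held none. On chromosome 21, a region between protein-coding genes, 417568 bp from USP25, likewise joined after CTCF siRNA. It was 2 pieces with 61000 bp in each control library and became 1 piece of 61800 and 62200 bp. At ACTN4, the gene of the actin-binding protein alpha-actinin-4, 4 and 5 pieces in control (25850 and 19550 bp) became 1 piece of 26150 and 26600 bp (chr19:39136151-39163150).

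The split region with the clearest loss of length lay over ACKR3, an atypical chemokine receptor gene (chr2:237477151-237496050). It was 1 piece of 18900 and 18200 bp in control, and 3 pieces with 11700 bp and 4 pieces with 13950 bp after CTCF siRNA. One lost CTCF site fell within it. The other named split regions kept nearly their whole length. A region of chromosome 21 between protein-coding genes had 19450 and 18400 bp in control and 18000 and 18650 bp after CTCF siRNA. Over ARRDC1 and EHMT1, where 2 lost CTCF sites fell, the lengths were 17050 and 15950 bp against 17000 and 17750 bp.

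Edges of the 36579 single-piece regions were then compared. Of 73158 edges, 2709 reached at least 500 bp further out in both CTCF siRNA libraries than in both control libraries (3.7%), and 215 retracted by as much (0.294%). The median edge moved outward by 150 bp. By library, the median left edge lay 75 bp outside the control mean in CTCF siRNA replicate 1 and 225 bp outside it in replicate 2, with 50 bp outside and 50 bp inside in the control libraries. Spreading occurred at 1 edge in 2393 regions and at both edges in 158, and was as frequent on the left (1362) as on the right (1347). Without CTCF siRNA replicate 2, 4502 edges spread and 1249 retracted.

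Few edges had a CTCF site close outside them. A lost site lay within 1000 bp outside 1107 edges, and 86 of these spread (7.77%, 95% Wilson interval 6.33 to 9.5%). With a persistent site, 20 of 124 spread (16.1%, 10.7 to 23.6%). Without a control CTCF site, 2603 of 71927 spread (3.62%, 3.48 to 3.76%). Both kinds of site thus went with a higher share of spreading edges, and the share was not higher at lost than at persistent sites. What else these edges share was not tested.

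Gaps of up to 5000 bp between neighbouring control regions gave a second view of spreading. Of 12546 such gaps, 1389 were covered from end to end by 1 region in both CTCF siRNA libraries (11.1%). In the reverse direction, 132 of 19359 gaps between CTCF siRNA regions were covered in both control libraries (0.682%). Taken singly, CTCF siRNA replicate 1 bridged 12.6% of the control gaps and replicate 2 bridged 23.3%, while control replicates 1 and 2 bridged 4.32 and 1.32% of the gaps between CTCF siRNA regions. Bridging fell steeply with length, from 36.7% of gaps up to 500 bp to 11.0% between 500 and 1000 bp, 2.16% between 1000 and 2000 bp, and 0.179% beyond 2000 bp.

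**Figure D2:**
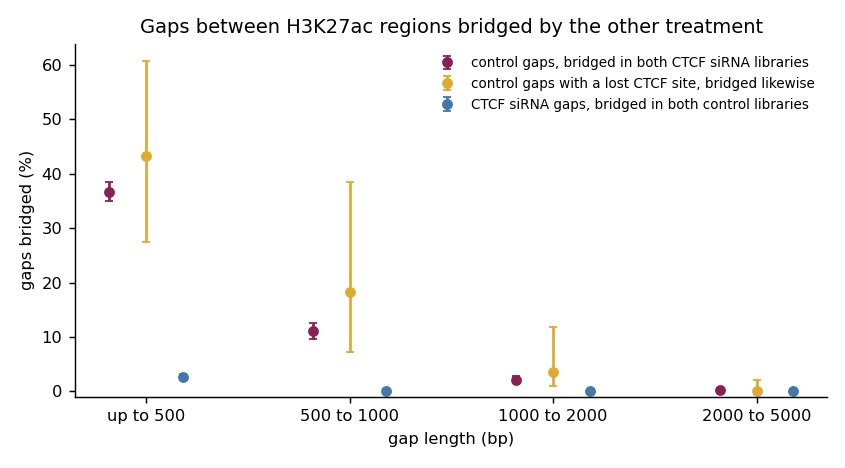
Percent of gaps bridged by the other treatment against gap length in bp, with 95% Wilson intervals over gaps. Of the 4 length classes, the shortest had 36.7% of control gaps bridged after CTCF siRNA and 2.69% of CTCF siRNA gaps bridged in control, and the gaps with a lost CTCF site (43.3% in the shortest class) had wide intervals that held the value for all control gaps.

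Gaps with a lost CTCF site were few, 297 of 12546, and 19 of them were bridged (6.40%, 4.13 to 9.77%). They were also longer than the rest, with a median of 2750 bp against 1500 bp. In gaps of matched length the shares were 43.3% (27.4 to 60.8%, 13 of 30) with a lost site and 36.6% (34.9 to 38.3%) without any control site up to 500 bp, and 18.2% (7.31 to 38.5%, 4 of 22) against 10.9% (9.54 to 12.4%) between 500 and 1000 bp. The intervals overlapped in both classes, so a difference was not detectable with these numbers of gaps.

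The 3 longest bridged gaps with a lost site are shown with the closest match to the CTCF consensus motif inside that site, because they are the places where loss of a CTCF peak and joining of H3K27ac regions met. Capitals mark the 14 bases aligned to the motif, in hg19.
DLG3 chrX:69672072-69672101 plus strand: aagctctaCCATCAGGGGGAGTgccgagtg
RETREG1 chr5:16550617-16550646 minus strand: ctgatctgCCACAAGGGGGCAGagttatgt
CREB3 chr9:35736268-35736297 plus strand: ctcctctgACACAAGGGGGAGCctgccagc
The matches had 3, 1 and 3 mismatches to the motif. The closest match was taken whatever its mismatches, and how often such matches occur elsewhere was not tested. Only the RETREG1 match is within the 1 mismatch allowed in the motif shares given later. The gap at DLG3, a gene for a synaptic scaffold protein, was 1550 bp (chrX:69672151-69673700) and lay within 1000 bp of a transcript start. CTCF was enriched 18 and 15.4-fold there in the control libraries, and H3K27ac ran from 69671301 to 69676850 and from 69671201 to 69676800 in the CTCF siRNA libraries. In an intron of RETREG1, an endoplasmic reticulum receptor for autophagy, the gap was 1200 bp (chr5:16550551-16551750) with a CTCF peak of 5.81 and 9.75-fold in control. The gap at CREB3, a transcription factor gene, was 750 bp (chr9:35735151-35735900), next to a CTCF peak of 25.9 and 40.7-fold. None of these peaks was in either CTCF siRNA list. The motif match itself lay inside the gap only at RETREG1, and beside it in the other two.

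For presence, each list was first cut to 69949 regions, the length of the shortest list, ranked by the deposited score and then by width. Of 67602 regions in at least 2 of the shortened lists, 43148 were in all 4. Regions in both CTCF siRNA lists and neither control list numbered 5918 (8.75%), and 2673 were in both control lists and neither CTCF siRNA list (3.95%). Of the 5918, 4406 (74.5%) were also absent from both full control lists. Of the 2673, 1137 (42.5%) were absent from both full CTCF siRNA lists. These 2 shares cannot be compared, because the list of control replicate 2 was the shortest and was not cut, while both CTCF siRNA lists were. Without CTCF siRNA replicate 2, 4784 regions were in control alone. The direction turned over when lists were cut to the same covered length of 122 Mb, with 450 regions in the CTCF siRNA lists alone and 6611 in the control lists alone. That cut left 44534 and 69949 regions in the control lists and 41464 and 30179 in the CTCF siRNA lists, since their regions were wider.

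Regions found under 1 treatment alone were narrower than shared regions. Those of CTCF siRNA had median widths of 1200 and 1600 bp in the 2 libraries and those of control 1200 and 900 bp, against 1850 to 2600 bp for regions in all 4 lists. Only 319 of the 5918 reached 2000 bp in both CTCF siRNA libraries, and 72 of the 2673 did so in both control libraries.

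They were mostly distal in both directions. Promoters made up 11.9% of the regions of CTCF siRNA alone and 11.8% of those of control alone, against 30.9% of the regions in all 4 lists. Seen from the other side, 4.23% of promoter consensus regions (3.93 to 4.54%) and 10.2% of distal ones (9.97 to 10.5%) were in CTCF siRNA alone, and 1.90% of promoter (1.71 to 2.12%) and 4.62% of distal ones (4.44 to 4.81%) in control alone. The CTCF siRNA excess over control was thus 702 to 316 at promoters and 5216 to 2357 in distal chromatin.

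The widest promoter region of CTCF siRNA alone lay within 1000 bp of a transcript start of NPC1, which encodes an intracellular cholesterol transporter (chr18:21111301-21123300). It measured 9250 and 12000 bp after CTCF siRNA, and the full list of control replicate 1 held 1050 bp there. At MID1, an E3 ubiquitin ligase gene (chrX:10584651-10589200), 4400 and 4050 bp were found after CTCF siRNA and none in either full control list. NFKBIZ, a regulator of NF-kappaB target genes (chr3:101571651-101575100), had 3450 and 3400 bp after CTCF siRNA and none in the full control lists. The widest distal regions lay in introns of VPS13A (6300 and 6300 bp) and LIN7A (6300 and 6900 bp) and 8356 bp from LRRC58 (5700 and 6850 bp), and these 3 were absent from both full control lists.

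Promoter regions of control alone were smaller, and parts of the 3 widest remained in at least 1 full CTCF siRNA list. REX1BD (chr19:18698601-18701350) had 2650 and 2750 bp in control, with 600 and 0 bp in the full CTCF siRNA lists. ALG6, a glycosylation enzyme gene, had 2600 and 2400 bp against 1250 and 1050 bp in the full lists. BCHE, the butyrylcholinesterase gene, had 4250 and 2350 bp against 0 and 2100 bp. The widest distal regions of control alone lay 80917 bp from TRIM77 (7000 and 4500 bp), 587228 bp from TBL1XR1 (6200 and 4250 bp) and in an intron of CNBD1 on chromosome 8 (5200 and 3950 bp). The first 2 of these each held a lost CTCF site, and parts of all 3 remained in at least 1 full CTCF siRNA list.

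At equal list length, each of the 23 chromosomes had more consensus regions in CTCF siRNA alone than in control alone, a direction that turned over for the genome as a whole at equal covered length (450 against 6611). On 8 of the 23 chromosomes the number of regions per shortened list did not overlap between groups. It was higher after CTCF siRNA on 6 of these and lower on chromosomes 4 and 21. With 2 libraries against 2, groups without any difference would separate at a share of 0.33, which is near 8 of 23. The share in CTCF siRNA alone ran from 5.03% on chromosome 19 to 10.5% on chromosome 15. The share in control alone ran from 2.25% on chromosome 15 to 5.99% on chromosome 13. Chromosome 15 had the largest ratio, 253 regions to 54, or 4.69. Chromosome 13 had the smallest, 90 regions to 72, or 1.25, and its intervals overlapped (6.13 to 9.11% and 4.78 to 7.47%), as they did on chromosomes 19 and 21. Chromosome 19, where 56.9% of consensus regions were promoters against 17.8 to 37.4% elsewhere, had 95 regions in CTCF siRNA alone and 65 in control alone. Shared regions were more often wider than narrower on all 23 chromosomes, with wider shares from 42.2% on chromosome 6 to 54.6% on chromosome 22.

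**Figure D3:**
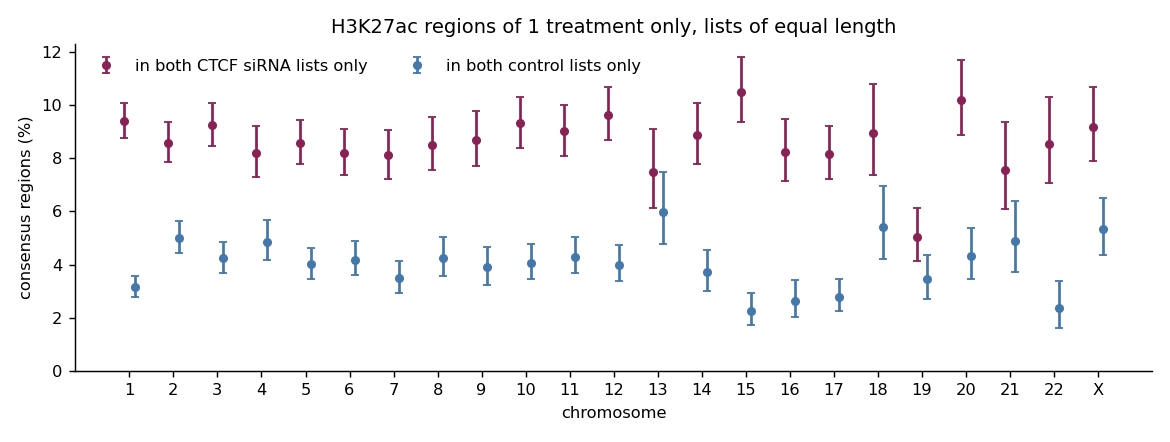
Percent of consensus H3K27ac regions on each chromosome that were in both lists of 1 treatment and neither list of the other, at equal list length, with 95% Wilson intervals over regions. The CTCF siRNA points lie above the control points on all 23 chromosomes, and the gap is smallest on chromosomes 13 and 19.

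Windows of 1 Mb were ranked by their count of such regions, a description chosen after the values were seen. The window with most regions of CTCF siRNA alone was chr2:180000001-181000000, which holds SESTD1, ZNF385B and CWC22. It had 22 regions in CTCF siRNA alone and 1 in control alone, and the shortened lists held 33 and 29 regions there in control and 58 and 65 after CTCF siRNA. The full lists held 39 and 29 against 85 and 90. In the next 4 windows of that ranking, with 13 or 14 regions of CTCF siRNA alone, the list counts overlapped in 3 (82 and 115 against 100 and 79 on chromosome 10, 70 and 85 against 85 and 73 on chromosome 2, and 82 and 88 against 82 and 77 on chromosome 5) and did not on chromosome 3 (61 and 70 against 75 and 73). The window with most regions of control alone was chr11:23000001-24000000, where no protein-coding gene is annotated. It had 10 regions in control alone and none in CTCF siRNA alone, with 54 and 41 list regions in control and 25 and 24 after CTCF siRNA. In the full lists the same window held 66 and 41 regions in control and 41 and 39 after CTCF siRNA, so the groups only touched.

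Further windows of control regions held named loci described above. The window of ACKR3, GBX2 and COPS8 (chr2:237000001-238000000) had 9 regions in control alone and 1 in CTCF siRNA alone, with 50 and 59 against 32 and 36 list regions. In the full lists these groups stayed apart as well, with 58 and 59 against 43 and 50 regions. The window of PAX1, NKX2-2 and XRN2 (chr20:21000001-22000000) had 9 and 2, with 37 and 26 against 19 and 19 list regions. The window of CHRM3, a muscarinic receptor gene (chr1:239000001-240000000), had 8 and 0, with 32 and 25 against 15 and 14. In the full lists the groups of these 2 windows overlapped or touched, with 41 and 26 against 29 and 27 regions at PAX1 and 35 and 25 against 20 and 25 at CHRM3. A window of chromosome 11 with the prostate-expressed receptor gene OR51E2 and MMP26 had 9 and 3, but its full lists held 32 and 27 regions in control and 35 and 34 after CTCF siRNA. In all, 89 of 2814 windows had at least 3 regions of control alone and none of CTCF siRNA alone, and 379 had the converse.

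The regions of each class were next compared in features that played no part in their choice. The central 500 bp of distal regions were searched on both strands for TGANTCA, the site of AP-1 factors (FOS and JUN dimers), and for TGTTTAC, a site of forkhead factors such as FOXA1. AP-1 letters were found in 26.4% of distal regions in CTCF siRNA alone (25.2 to 27.6%), 19.9% of distal regions in all 4 lists (19.4 to 20.3%) and 16.4% of those in control alone (15.0 to 18%). The forkhead letters ran the other way, with 12.8% (12 to 13.8%), 15.4% (15.0 to 15.8%) and 18.3% (16.8 to 19.9%). The median G+C content of the 3 classes was 44, 43.2 and 40.8%, so base composition moved with the classes, and its part in these shares was not tested.

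These orders did not rest on CTCF siRNA replicate 2. When that library was left out, distal regions of CTCF siRNA replicate 1 in neither control list held AP-1 letters in 24.4% and forkhead letters in 12.6%. Distal regions in both control lists and not in CTCF siRNA replicate 1 held them in 16.1 and 18.9%. With lists cut to equal covered length, where the direction of presence turned over, the AP-1 shares were 21% (17.2 to 25.5%, 371 regions) in CTCF siRNA alone and 17.3% (16.4 to 18.3%) in control alone, the first interval holding the 20.3% of regions in all 4 lists, and the forkhead shares 11.1 and 19.8%. Both checks were added after the data were seen. At promoters AP-1 letters were found in 22.5% of regions in CTCF siRNA alone (19.6 to 25.7%), 11.5% of those in all 4 lists (11.0 to 12.1%) and 10.1% of those in control alone (7.26 to 13.9%). The forkhead letters were found in 9.97% (7.97 to 12.4%), 7.51% (7.07 to 7.96%) and 11.7% (8.62 to 15.7%) of these promoter classes, so they did not run the other way. Their median G+C content was 46, 53.6 and 53.6%, with 5, 14 and 10 CpG in the median window, and its part in these shares was not tested.

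The AP-1 match closest to the centre of each of the 3 widest distal regions of CTCF siRNA alone is printed to show the letters searched for, and the forkhead match for 2 of the 3 widest of control alone. These matches lay outside the central 500 bp, so they are not among those counted in the shares. Capitals mark the match, and the plus strand of hg19 is given.
VPS13A intron chr9:79809612-79809652: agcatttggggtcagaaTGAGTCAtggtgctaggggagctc
LIN7A intron chr12:81261194-81261234: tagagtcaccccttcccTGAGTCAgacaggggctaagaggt
near LRRC58 chr3:120030239-120030279: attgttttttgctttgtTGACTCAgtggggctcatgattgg
near TRIM77 chr11:89357104-89357144: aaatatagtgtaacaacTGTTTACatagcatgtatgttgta
near TBL1XR1 chr3:176144020-176144060: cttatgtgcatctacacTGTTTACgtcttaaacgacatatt
The VPS13A region held 3 AP-1 and 2 forkhead matches in 6350 bp and the LIN7A region 2 and 2 in 7050 bp. The region near LRRC58 held 2 AP-1 matches and no forkhead match in 6850 bp. The TRIM77 region held 1 AP-1 and 3 forkhead matches in 7000 bp, and the TBL1XR1 region 1 and 1 in 6200 bp. The motif not printed was nearer to the centre at LIN7A (forkhead 133 bp, AP-1 461 bp) and TBL1XR1 (AP-1 2101 bp, forkhead 2760 bp). That LIN7A forkhead match lay inside the central 500 bp. The printed motif was nearer at VPS13A (656 against 1723 bp) and TRIM77 (1926 against 2928 bp). A match is a run of letters and not a bound site.

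CTCF peaks overlapped regions of control alone most often. At promoters a lost CTCF site overlapped 29.4% of regions in control alone (24.7 to 34.7%), 7.41% of those in CTCF siRNA alone (5.69 to 9.59%) and 16.9% of those in all 4 lists (16.3 to 17.6%). In distal chromatin the shares were 12% (10.7 to 13.3%), 5.08% (4.52 to 5.71%) and 7.45% (7.16 to 7.76%). The classes had different widths, with median merged lengths of 1300, 1650 and 2800 bp over promoter and distal regions together, so that the regions of control alone, which were the shortest, had the highest share. Persistent sites were rare in every class, at 1.31% of regions in control alone and 1.01% of those in CTCF siRNA alone. The CTCF consensus motif with up to 1 mismatch was found in the central 500 bp of 2.84% of distal regions in control alone (2.24 to 3.59%), 1.63% in CTCF siRNA alone (1.32 to 2.01%) and 1.54% of those in all 4 lists (1.41 to 1.69%).

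H3K4me3, the mark of active promoters, was measured in separate libraries of the same treatments. In distal regions of CTCF siRNA alone it was present in both control H3K4me3 lists at 2.55% (2.16 to 3.01%) and in both CTCF siRNA H3K4me3 lists at 6.63% (5.99 to 7.34%). In distal regions of control alone it went the other way, from 13.2% (11.9 to 14.6%) to 8.61% (7.55 to 9.81%). In distal regions of all 4 lists it rose from 34.5 to 41.2%, so a part of the first difference was shared by regions that were present throughout. At promoter regions of control alone the shares were 47.8 and 46.2%, with overlapping intervals. The H3K4me3 lists were not cut to equal length. Joined H3K4me3 regions numbered 31150 in both control lists and 35452 in both CTCF siRNA lists. The part of this difference in the H3K4me3 shares was not tested.

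**Figure D4:**
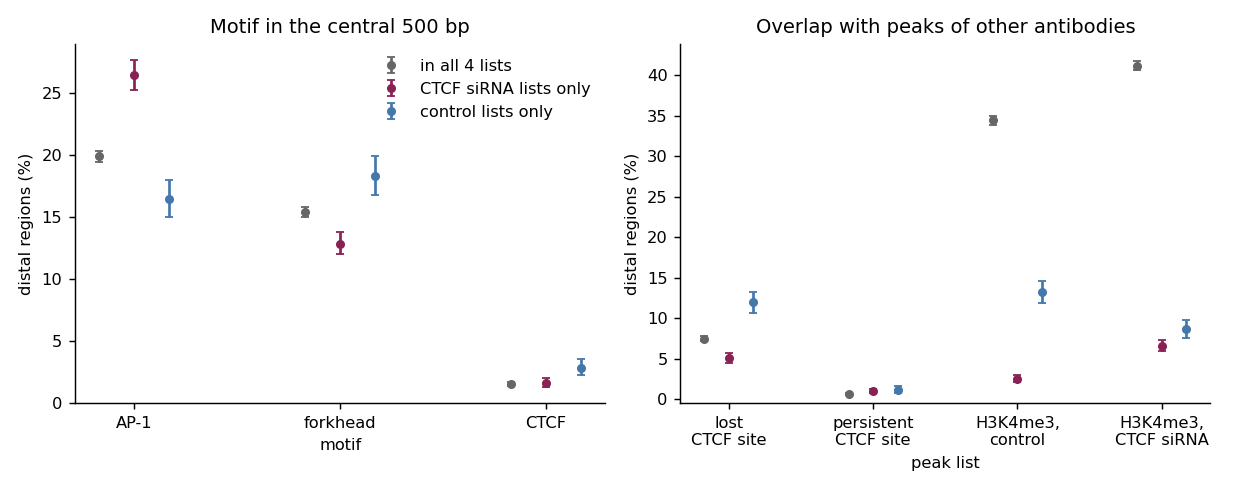
Percent of distal H3K27ac regions in all 4 lists, in the CTCF siRNA lists alone and in the control lists alone that held a motif in their central 500 bp (left panel) or overlapped a peak of another antibody (right panel), with 95% Wilson intervals over regions. AP-1 letters were most frequent in regions of CTCF siRNA alone (26.4%) and forkhead letters and lost CTCF sites in regions of control alone (18.3 and 12%).

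At gene level, H3K27ac coverage within 5000 bp on either side of each protein-coding gene start was compared at equal list length. Of 20090 genes, 13618 had some coverage in at least 1 library. Coverage was higher after CTCF siRNA at 4729 gene starts (34.7%) and lower at 373 (2.74%), where higher and lower mean groups that did not overlap and means at least 500 bp apart. The median difference over all covered gene starts was 475 bp, which is the shift against which single genes have to be read. At equal covered length 3206 were higher and 959 lower. A region lay within 1000 bp of the gene start in both CTCF siRNA lists and neither control list at 190 genes, and the converse held at 142 genes.

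The largest gain was at MAP1B, which encodes a microtubule-associated protein (chr5:71403061-71505392). Coverage was 0 and 0 bp in control and 6310 and 7760 bp after CTCF siRNA, and the full lists gave the same values. The next gains were at PTPN18, a tyrosine phosphatase gene, with 2000 and 2300 bp in control and 6817 and 8667 bp after CTCF siRNA, and at CCDC59, with 4200 and 2750 bp against 9033 and 9083 bp. CCDC59 and METTL25 start within the same window, so their values describe a single region. ASB6 had 0 and 1103 bp in control and 5653 and 6453 bp after CTCF siRNA. PCYOX1L, DPM2 (a subunit in dolichol-phosphate-mannose synthesis) and PLAAT3 (a phospholipase) gained 5026, 5025 and 4800 bp on average. The remaining members of the top 10 were the neighbouring chromosome 9 gene models ENSG00000291303 and ENSG00000288841. At PTPN18 and ENSG00000288841 the direction turned over at equal covered length.

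The largest loss was at CAMK2N1, an inhibitor of calcium/calmodulin-dependent kinase II (chr1:20808884-20812703). Coverage was 4598 and 5848 bp in control and 0 and 0 bp after CTCF siRNA, and no region lay there in the full CTCF siRNA lists either. PAX1, a developmental transcription factor gene, fell from 4696 and 2000 bp to 0 and 0 bp, and GCG, the glucagon gene, from 4287 and 1750 bp to 0 and 0 bp, with the same zeros in the full lists. BCHE fell from 4250 and 2350 bp to 0 and 0 bp at equal length, but the full list of CTCF siRNA replicate 2 held 2100 bp. MMP26, a matrix metalloproteinase gene, had 4637 and 3687 bp in control and 0 and 1100 bp after CTCF siRNA. CROCC2 had 4600 and 5650 bp against 0 and 2400 bp. HDDC3 (5175 and 5525 bp against 2325 and 2325 bp) and CDH26, a cadherin gene (8973 and 8000 bp against 5600 and 5850 bp), kept part of their coverage. NPY4R and NPY4R2 are near-identical copies with the same coordinates here, so their shared value is uncertain.

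**Figure D5:**
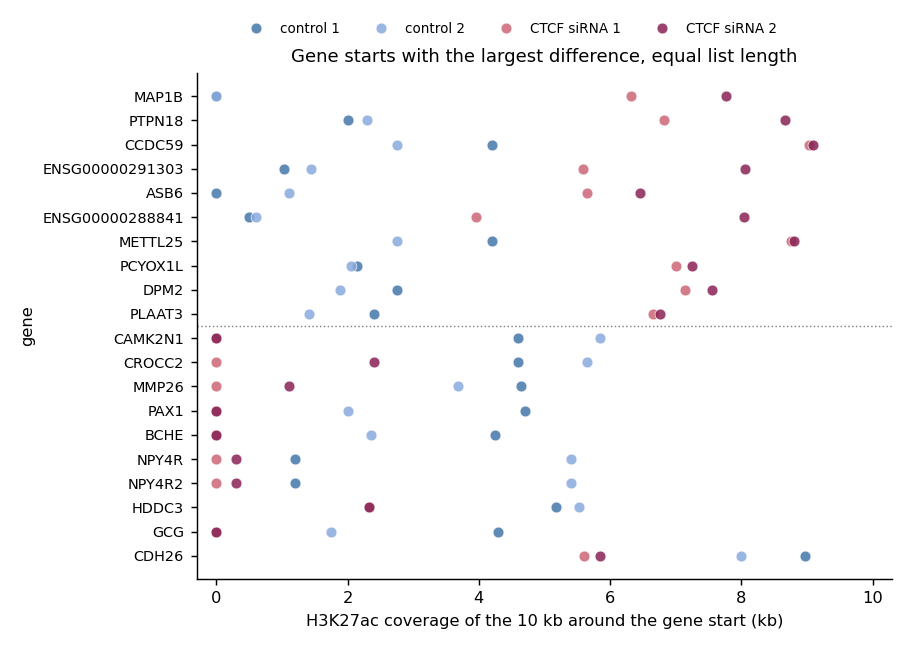
H3K27ac coverage in kb of the 10 kb window around the gene start in each of the 4 libraries, for the 10 genes with the largest gain (above the dotted line) and the 10 with the largest loss. No control library covered MAP1B and no CTCF siRNA library covered CAMK2N1, PAX1, BCHE or GCG at equal list length.

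The 250 bases upstream of the MAP1B and CAMK2N1 starts are printed because these promoters had no region at all under 1 treatment. Capitals mark GGGCGG (the GC box of SP factors), TGACG (the cyclic AMP response half-site), TGANTCA or TGTTTAC on either strand, and each sequence reads 5′ to 3′ toward the gene in hg19.
MAP1B chr5:71402811-71403060 plus strand: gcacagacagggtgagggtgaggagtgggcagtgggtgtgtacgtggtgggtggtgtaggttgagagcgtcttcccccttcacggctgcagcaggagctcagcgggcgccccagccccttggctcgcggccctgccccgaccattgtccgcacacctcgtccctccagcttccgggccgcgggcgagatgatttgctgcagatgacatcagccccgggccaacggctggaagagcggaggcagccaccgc
CAMK2N1 chr1:20812704-20812953 minus strand: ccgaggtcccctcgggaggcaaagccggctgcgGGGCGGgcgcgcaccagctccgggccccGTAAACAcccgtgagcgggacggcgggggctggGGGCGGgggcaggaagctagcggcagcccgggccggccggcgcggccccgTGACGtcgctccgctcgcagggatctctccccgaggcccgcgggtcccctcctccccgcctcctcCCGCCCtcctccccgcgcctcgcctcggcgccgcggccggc
CAMK2N1 held 3 GC boxes, 1 TGACG and 1 forkhead match, and its G+C content was 81.6%. None of these letters occurred in the MAP1B window, whose G+C content was 68.0%. Among 20086 upstream windows of the same length, 48.8% held a GC box, 22.8% TGACG, 5.46% TGANTCA and 2.45% TGTTTAC.

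Gene lists were read against the 34.7% of all covered gene starts that were higher. Of 11 covered immediate early and AP-1 genes, 7 were higher and none lower (63.6%), with a median difference of 750 bp. FOS had 2600 and 3450 bp in control and 4700 and 5550 bp after CTCF siRNA, and ATF3, a stress-response factor, 1400 and 1700 bp against 3250 and 3450 bp. FOSL2 and JUND were also higher, while JUN (7881 and 7481 bp against 7731 and 7531 bp) and JUNB overlapped between the groups. With windows of 2000 bp on either side, 3 of the list were higher, and 2641 gene starts in all against 4729 in the main windows.

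Of 12 sterol and fatty acid synthesis genes, 7 were higher and none lower (58.3%), with a median difference of 876 bp. HMGCS1, an early enzyme of cholesterol synthesis, had 4300 and 3650 bp in control and 5250 and 6450 bp after CTCF siRNA. SQLE (squalene epoxidase) had 1050 and 850 bp against 2300 and 2300 bp, though its direction turned over at equal covered length. FDFT1 and INSIG1 were higher, and FASN overlapped between groups. With windows of 2000 bp, 4 of the list were higher, in a setting with fewer higher gene starts in all (2641 against 4729). Of 15 p53 target genes 6 were higher (40.0%), led by SESN2 (3850 and 3500 bp against 6428 and 6050 bp), BTG2 and FAS. TP53I3 was lower (2150 and 1900 bp against 1550 and 0 bp), and 1 of the p53 list was higher in the narrower windows. Covered gene starts were not counted in the narrower windows. The list counts there, also that of the AP-1 list, thus have no background share. Of 15 cell cycle genes 6 were higher (40.0%), among them AURKA, CDC20 and PCNA.

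The androgen-induced genes and luminal transcription factors were called higher at shares near or below the background, though full windows limited the calls. Of 13 covered androgen-induced genes 3 were higher (23.1%), namely PMEPA1, ELL2 and ABCC4. Without CTCF siRNA replicate 2, 1 of the list was higher, and 4264 gene starts in all. Without CTCF siRNA replicate 1 the counts were 6 of the list and 7891 in all, against 4729 in all with every library. KLK3 was covered over 10000 and 9850 bp in control and 10000 and 10000 bp after CTCF siRNA, the whole window, so a gain could not have been seen there. Of 9 luminal transcription factors 2 were higher, GRHL2 (7716 and 7266 bp against 9416 and 9616 bp) and XBP1, and HOXB13 was not called. FOXA1 filled the window of 10000 bp in every library, so no gain could have been seen there either. FKBP5 (9600 and 9900 bp in control) and GATA2 (9600 and 9707 bp) were too near a full window to gain 500 bp. Of 12 covered CTCF and cohesin genes 4 were higher (33.3%), MAU2, NIPBL, STAG2 and PDS5A. CTCF itself had 5000 and 4150 bp in control and 4719 and 6600 bp after CTCF siRNA, which says nothing of the siRNA, since it acts on the mRNA.

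The other lists were at or below the background with 1 exception. Higher were 3 of 14 interferon-induced genes (MX1, OAS1 and OASL), 4 of 14 housekeeping genes and 2 of 11 luminal markers (KRT8 and KRT18, neighbours whose windows share most of their coverage, with 5500, 6150 and 6500 bp at both in 3 of the libraries), and none of these lists had a lower member. Of 4 covered basal markers 3 were higher, the integrin and laminin genes ITGA6 (2981 and 2531 bp against 4181 and 4281 bp), ITGB4 (0 and 0 bp against 1250 and 2450 bp) and LAMB3. The summed coverage of the 10 basal markers was 6831 and 5981 bp in control and 10881 and 11531 bp after CTCF siRNA, while TP63, KRT5 and KRT14 stayed at 0. None of the list was higher at equal covered length, and their part in the other results was not tested. None of the 6 covered mesenchymal markers, the single neuroendocrine marker or the 2 immune markers was called.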

How the data were processed

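ChIP-seq for H3K27ac was analysed in 2 control and 2 CTCF siRNA libraries of LNCaP cells. The authors aligned the reads to hg19, removed duplicate and multiply mapped reads, and called H3K27ac and H3K4me3 regions in each library on its own. The submitters' processing notes name Bowtie and MACS2 and the study's methods name PeakRanger for the histone marks. Each deposited list gives positions on a 50 bp grid and a score whose meaning is not stated. The score was used only to rank regions, lowest first. The deposited CTCF lists give a fold enrichment ratio per peak.

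Regions were joined across lists where they overlapped by at least 1 bp. Promoters lay within 1000 bp of a GENCODE release 44 protein-coding transcript start, lifted to the build of the lists. Calls required that the 2 libraries of a treatment did not overlap those of the other. Single values were tested with two-sided exact permutation tests. Wilson 95% intervals cover counting error only. Sequences were read from the reference genome of the same build with Python 3.11.15, numpy 2.4.6, pandas 2.3.3, scipy 1.17.1 and matplotlib 3.10.9. The functions were tested on made-up lists.

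The members and lists were chosen with earlier results of these data known. Named regions were the 5 largest and 5 smallest width ratios, 3 split, 3 merged and 3 bridged gaps, 3 promoter and 3 distal regions per treatment, the 10 largest gene differences each way, and up to 4 called genes per list. Alternatives were leaving out each library, full lists, equal covered length, joined regions, other distances, centred widths and a replicate block. Results for some genes and a motif are not reported here.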

Additional observations from a re-analysis of the deposited data

How the results depend on the processing

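The 2 libraries per treatment limit every comparison, the lists hold no read counts, and a region that narrowly misses the authors' threshold cannot be told apart from one without signal. Leaving out each library in turn kept the direction of every pair of counts. Wider regions then numbered 24367 to 37237 and narrower ones 2660 to 9531, or 6414 to 16742 and 298 to 2039 at 1.5-fold, with a median ratio of 1.1 to 1.31. Merged regions numbered 1363 to 2996 and split ones 282 to 982, spread edges 4502 to 12650 and retracted ones 483 to 1968, and bridged gaps 12.6 to 23.3% and 1.06 to 4.32%. Regions in CTCF siRNA alone numbered 8433 to 10761 without a control library, regions in control alone 4095 to 4784 without a CTCF siRNA library, and a treatment left with 1 library gave no such count. Their promoter shares were 12.4 to 13.7% and 12.1 to 13.3%, and 29.1 to 30.2% for shared regions. Gene starts were higher at 4264 to 7891 and lower at 468 to 1115. The difference in regions per library ran from 9745 to 26745, in median width from 25 to 375 bp, in covered length from 33.9 to 84.1 Mb and in single-piece width from 200 to 575 bp, and 23 chromosomes had more wider than narrower regions each time.

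Whether replicate numbers pair the libraries is not stated in the labels. The deviations of same-numbered libraries from their group means correlated at 0.0283 over shared widths and 0.114 over gene starts, which does not settle it. With the replicate number as a block, 24713 regions were wider and 2554 narrower, and 5156 gene starts higher and 476 lower.

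Centred widths gave 10681 wider and 13051 narrower regions (3773 and 1808 at 1.5-fold) and a median ratio of 0.981. Equal covered length gave 13151 wider and 1056 narrower regions (3690 and 149 at 1.5-fold), 13 split regions, 130 retracted edges, 959 lower gene starts, and 450 regions in CTCF siRNA alone against 6611 in control alone. It turned the mean difference at PTPN18 and SQLE to -425 bp and at ENSG00000288841 and HPRT1 to -300.0 bp. Equal list length gave 81 split regions and joining within 200 bp gave 120. An edge shift of 250 bp gave 8957 spread and 813 retracted edges, and one of 1000 bp gave 471 and 22. Full lists gave 10989 regions in CTCF siRNA alone, 1540 in control alone, a promoter share of 29.6% for shared regions, 237 lower gene starts, and lost CTCF sites in 4.23 and 18.2% of the exclusive regions. They turned the mean difference in regions to 11.5 and 10.0 in windows of chromosomes 10 and 5 and to 5.0 in that of OR51E2. Counting presence from 50% cover gave 9472 regions in CTCF siRNA alone. Starts of all genes gave promoter shares of 17.9, 17.4 and 38.5% for CTCF siRNA, control and shared regions, and 5000 bp gave 27.1, 22.3 and 41.7%. CTCF sites within 1000 bp gave 7.67, 16.1 and 12.2%. Gene windows of 2000 bp gave 2641 higher gene starts. The causes of these changes were not tested.

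Of 57 named genes called at their start, 54 kept the call in the full lists, 42 at equal covered length and 38 with windows of 2000 bp. Without any 1 library 51 to 56 kept it, and 57 with the block. These last 2 settings are no test of the calls. Groups that do not overlap stay apart when a library is left out, so only the limit of 500 bp could undo a call. The block could undo none.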
